A study of Mus musculus with 2 samples.

Results

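The LIM homeodomain genes Lhx1, Lhx2, Lhx3, Lhx4, Lhx5, Lhx9, Isl1, Isl2, Lmx1a and Lmx1b were followed in mRNA of the embryonic mouse central nervous system (strain C57BL/6J, embryonic day 11.5). They were chosen by name, as 10 of 43346 Ensembl genes in the deposited gene tables, and each symbol matched 1 gene. The only group held 2 libraries made from mixed-sex littermates, labelled biological replicates 1 and 2, and the labels named no allele or treatment. With no second group there was no contrast to test, and every SD below (n = 2) is the spread of a pair of values. Replicates 1 and 2 held 120461126 and 108007021 expected counts over Ensembl genes, an expected count being the estimated number of fragments of a gene, and levels are given in TPM, an abundance corrected for transcript length and library size.

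LIM homeodomain factors are transcription factors that carry a pair of LIM domains, which bind partner proteins such as Ldb1, in front of a DNA-binding homeodomain. In the developing neural tube and brain, the combination that a young neuron expresses marks its class, as with Isl1, Isl2, Lhx3 and Lhx4 in motor neurons or Lhx2 and Lhx9 in dorsal interneurons. The genes form close paralogous pairs, Lhx1 with Lhx5, Lhx2 with Lhx9, Lhx3 with Lhx4, Isl1 with Isl2 and Lmx1a with Lmx1b.

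The recognition helix is the part of the homeodomain that lies in the major groove of DNA, and its coding bases are shown because all members share its core. The 51 coding bases below run from homeodomain residue 42 to 58, from the GENCODE M21 transcripts on mm10. The capitals mark the 12 bases of residues 48 to 51, tryptophan, phenylalanine, glutamine and asparagine, which all 10 genes encode.
Lhx1: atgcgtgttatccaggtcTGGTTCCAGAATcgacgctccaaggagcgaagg
Lhx5: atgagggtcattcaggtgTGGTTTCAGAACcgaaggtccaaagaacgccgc
Lhx2: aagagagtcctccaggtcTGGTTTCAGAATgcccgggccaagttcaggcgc
Lhx9: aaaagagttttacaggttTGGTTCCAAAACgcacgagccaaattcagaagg
Lhx3: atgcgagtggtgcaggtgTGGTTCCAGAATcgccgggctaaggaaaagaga
Lhx4: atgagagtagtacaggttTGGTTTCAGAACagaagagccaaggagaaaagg
Isl1: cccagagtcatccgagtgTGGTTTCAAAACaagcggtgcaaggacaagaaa
Isl2: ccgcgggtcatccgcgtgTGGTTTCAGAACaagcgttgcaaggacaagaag
Lmx1a: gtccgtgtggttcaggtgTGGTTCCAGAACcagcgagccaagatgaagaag
Lmx1b: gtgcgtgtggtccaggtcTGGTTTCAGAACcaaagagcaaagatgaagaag
Over the 180 bases of the whole homeobox, the 5 pairs were identical at 79.4% to 83.3% of positions, while the other 40 comparisons between members ranged from 48.3% to 70%. Within the 51 bases shown, Isl1 and Isl2 differed at 7 positions, as did Lmx1a and Lmx1b, and each of the other pairs differed at 14. The other 40 comparisons differed at 13 to 25 positions in this stretch, so the helix alone sets apart only the Isl and Lmx1 pairs, by fewest differences.

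All 10 members reached at least 1 TPM in both libraries, a level that 60.8% of protein-coding genes reached. Their levels spanned a wide range, with Lhx2 on top and Lhx3 and Lhx4 at the bottom in each library. Of the 9 neighbouring pairs in the order of mean TPM, 3 did not overlap between their libraries: Lhx2 above Lhx9, Isl2 above Lmx1a, and Lmx1a above Lhx3. The other 6 overlapped, so that next neighbours from Lhx9 through Isl1, Lhx1, Lmx1b and Lhx5 to Isl2, and Lhx3 with Lhx4, were not set apart. Over longer steps some of them were: both values of Lhx9 lay above both of Lhx1, and those of Lhx9, Isl1 and Lhx1 above those of Lhx5 and Isl2.

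**Figure D1:**
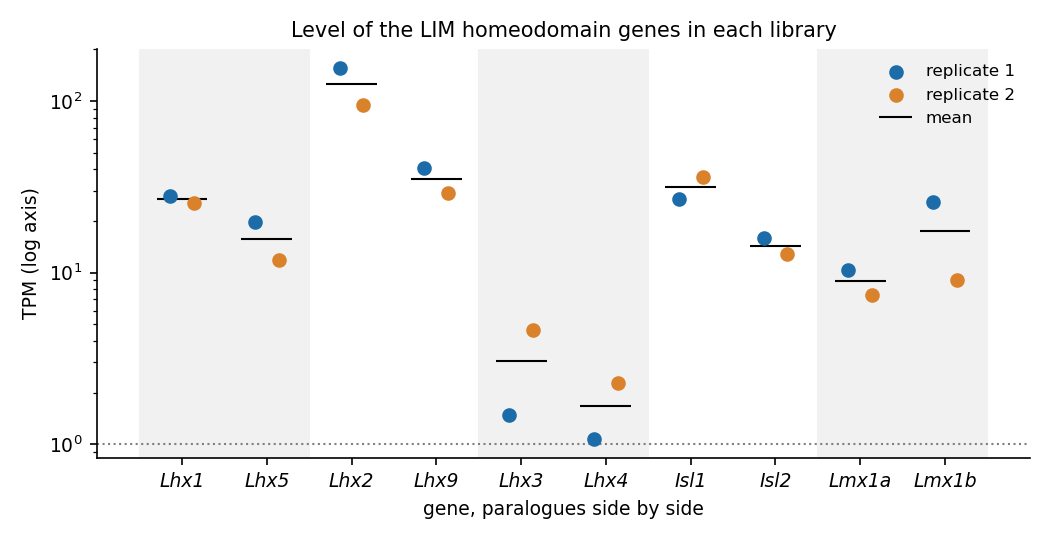
TPM of each LIM homeodomain gene (log axis) in replicate 1 and replicate 2, with the mean as a bar and paralogues side by side; the dotted line is 1 TPM. Lhx2 lies highest at 156 and 94.9 TPM, and Lhx4 lies lowest at 1.07 and 2.27 TPM.

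Ratios between the libraries were taken from the counts, scaled by TMM (trimmed mean of M values), as replicate 1 over replicate 2, so that a positive log2 ratio means a higher level in replicate 1. Their 95% intervals are exact binomial intervals on the 2 counts. Such an interval reflects counting error alone and sets 1 library against the other. The ratio was at least 2-fold for 2 of 10 members, Lhx2 and Lhx3, against 11.4% of the 16508 genes with a summed count of at least 100. Lhx2 was the 1 member that far above in replicate 1 (5.05% of all genes) and Lhx3 the 1 member that far above in replicate 2 (6.34% of all genes). The median log2 ratio of the members was 0.32, beside 0.01 over all genes tested. In bulk tissue, fewer cells of a type and less RNA per cell cannot be told apart.

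Lhx1 acts in the head organizer of the early embryo, and both Lhx1 and Lhx5 later mark classes of interneurons in the spinal cord and hindbrain. Lhx1 (chr11:84518284-84525535, minus strand, mm10) had 27.9 TPM in replicate 1 and 25.5 TPM in replicate 2, from 6986 and 5422 counts. This was the closest agreement of the members on the TPM scale (26.7 ± 1.70 TPM), with a count ratio of 1.26-fold (95% interval 1.22 to 1.31). Lhx5 (chr5:120431699-120441223, plus strand) had 19.8 TPM in replicate 1 and 11.8 TPM in replicate 2, from 4133 and 2099 counts. Its scaled counts were 1.93-fold higher in replicate 1 (95% interval 1.83 to 2.03). In replicate 1 the levels of the pair were closer to each other than in replicate 2, and Lhx1 was the higher of the pair in both.

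Lhx2 is required for eye and forebrain development, and with Lhx9 it marks the dorsal interneurons that arise from Atoh1-expressing progenitors. Lhx2 (chr2:38339281-38369733, plus strand) had 156 TPM in replicate 1 and 94.9 TPM in replicate 2, from 26282 and 11824 counts. The level in replicate 1 stood above that of 96.0% of protein-coding genes, and the level in replicate 2 above that of 93.1%. Its scaled counts were 2.18-fold higher in replicate 1 (95% interval 2.13 to 2.22). Lhx9 (chr1:138825186-138848577, minus strand) had 40.8 TPM in replicate 1 and 29.0 TPM in replicate 2, from 9107 and 6808 counts. Its ratio was 1.31-fold (95% interval 1.27 to 1.35), in the direction of Lhx2 and smaller.

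Lhx3 and Lhx4 act in motor neurons, V2a interneurons and the pituitary. Lhx3 (chr2:26200212-26208289, minus strand) had 1.49 TPM in replicate 1 and 4.62 TPM in replicate 2, from 153 and 545 counts. Its scaled counts were 3.63-fold higher in replicate 2 (95% interval 3.04 to 4.38), the widest gap of the 10 members. Lhx4 (chr1:155698031-155751684, minus strand) had 1.07 TPM in replicate 1 and 2.27 TPM in replicate 2, from 372 and 692 counts. It was 1.90-fold higher in replicate 2 (95% interval 1.67 to 2.16). Both genes were thus lower in replicate 1, Lhx4 by less than 2-fold on the count scale.

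Isl1 and Isl2 mark postmitotic motor neurons, and Isl1 also marks dI3 interneurons, sensory ganglia and cells of the heart and limb. Isl1 (chr13:116298281-116309689, minus strand) had 26.8 TPM in replicate 1 and 36.2 TPM in replicate 2, from 2728 and 4282 counts. Its scaled counts were 1.60-fold higher in replicate 2 (95% interval 1.53 to 1.68). Isl2 (chr9:55538672-55546180, plus strand) had 15.9 TPM in replicate 1 and 12.8 TPM in replicate 2, although its scaled counts, from 1196 and 1330 counts, were 1.14-fold higher in replicate 2 (95% interval 1.05 to 1.23). The direction of Isl2 thus differed between the count and TPM scales.

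Lmx1a is a determinant of the roof plate and of midbrain dopaminergic progenitors, and Lmx1b acts in dopaminergic and serotonergic neurons and in dorsal limb mesenchyme. Lmx1a (chr1:167689237-167848741, plus strand) had 10.4 TPM in replicate 1 and 7.41 TPM in replicate 2, from 2819 and 1715 counts. Its scaled counts were 1.61-fold higher in replicate 1 (95% interval 1.51 to 1.71). Lmx1b (chr2:33560965-33640511, minus strand) had 25.9 TPM in replicate 1 and 9.09 TPM in replicate 2, from 3240 and 2573 counts. Its TPM was 2.85-fold higher in replicate 1, while its scaled counts were only 1.23-fold higher (95% interval 1.17 to 1.30), so the pair of scales parted most for this gene.

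**Figure D2:**
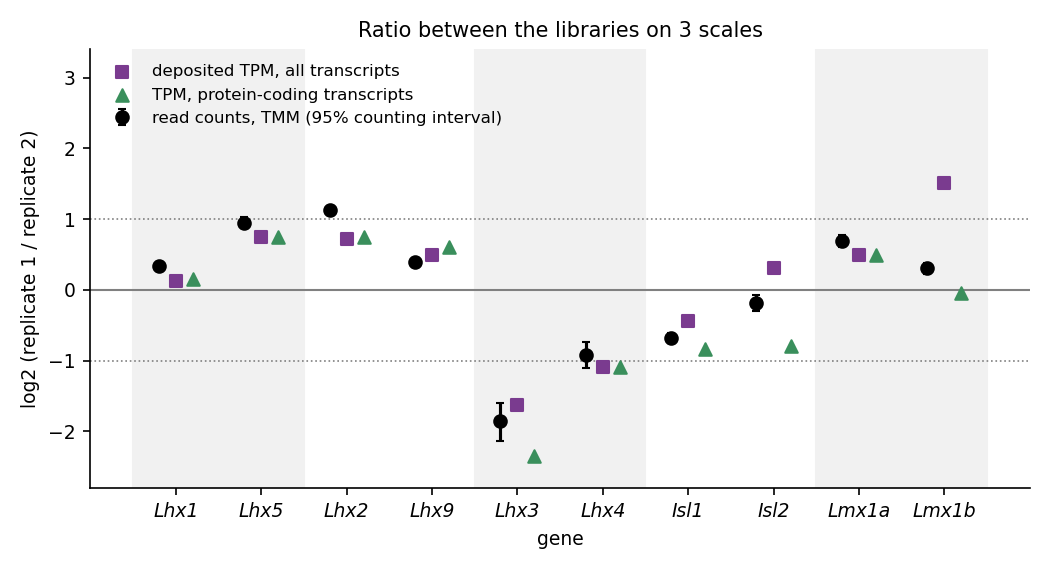
Log2 ratio of replicate 1 over replicate 2 for each gene, from TMM-scaled counts (circles, 95% counting intervals), deposited TPM over all transcripts (squares) and TPM over protein-coding transcripts (triangles); dotted lines mark a 2-fold ratio. Lmx1b stands at 0.30 on counts and 1.51 on TPM, and Isl2 changes side between the scales.

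TPM divides a count by the gene's effective length, the average length of its transcripts weighted by their estimated abundance, so an altered transcript mix moves TPM without any change in reads. Effective length was at least 1.5-fold apart between the libraries for 2 of 10 members, Isl2 and Lmx1b, against 3.72% of all genes tested. For Lmx1b it was 1463 bases in replicate 1 and 3859 bases in replicate 2, and for Isl2 it was 880 bases in replicate 1 and 1417 bases in replicate 2. The Lmx1b estimate rested on Lmx1b-202, a short noncoding processed transcript of 476 bases, which was given 66.1% of the gene's TPM in replicate 1 and 0 in replicate 2. Over protein-coding transcripts alone, Lmx1b had 8.79 TPM in replicate 1 and 9.09 TPM in replicate 2.

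Junction reads were set beside this split. Lmx1b-202 shares 1 intron with Lmx1b-201, the full coding form, and has another of its own. In the deposited mm9 junction list, which gives a first and a second read count that no label ties to replicate 1 or 2, the intron of its own had no read. The shared intron had 604 and 111 reads as first and second count, while the other introns of Lmx1b-201 had 39 to 163 reads as first count and 45 to 101 as second count. Reads over the shared intron were thus in excess of those over its neighbours, by little in the second count. The distinguishing junction was not seen. Reads were also uneven where no such form is annotated: the introns of Lhx5, with 1 transcript, had 78 to 317 reads as first count. Whether the excess in Lmx1b came from Lmx1b-202 was not tested.

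Estimated noncoding forms also shifted in Isl2 and Isl1. In Isl2, the retained-intron transcript Isl2-204 took 54.5% of the gene's TPM in replicate 1 and 13.6% in replicate 2, and the coding Isl2-201 took 32.6% in replicate 1 and 75.1% in replicate 2. The intron that these forms share had 350 and 130 reads as first and second count, and the intron before it had 58 and 125. Over all other introns of Isl2-201, reads ranged from 17 to 203 as first count and from 59 to 206 as second count. Over coding transcripts alone, Isl2 had 5.79 TPM in replicate 1 and 10.04 TPM in replicate 2, which is the direction of its counts. In Isl1, the processed transcript Isl1-204 took 26.2% in replicate 1 and 3.31% in replicate 2, and the coding forms together took 53.7% in replicate 1 and 71.2% in replicate 2. The leading transcript differed between the libraries for 4 of the 9 members with several transcripts, Lhx9, Lhx3, Isl2 and Lmx1b, against 21.5% of all such genes with a summed count of at least 100.

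**Figure D3:**
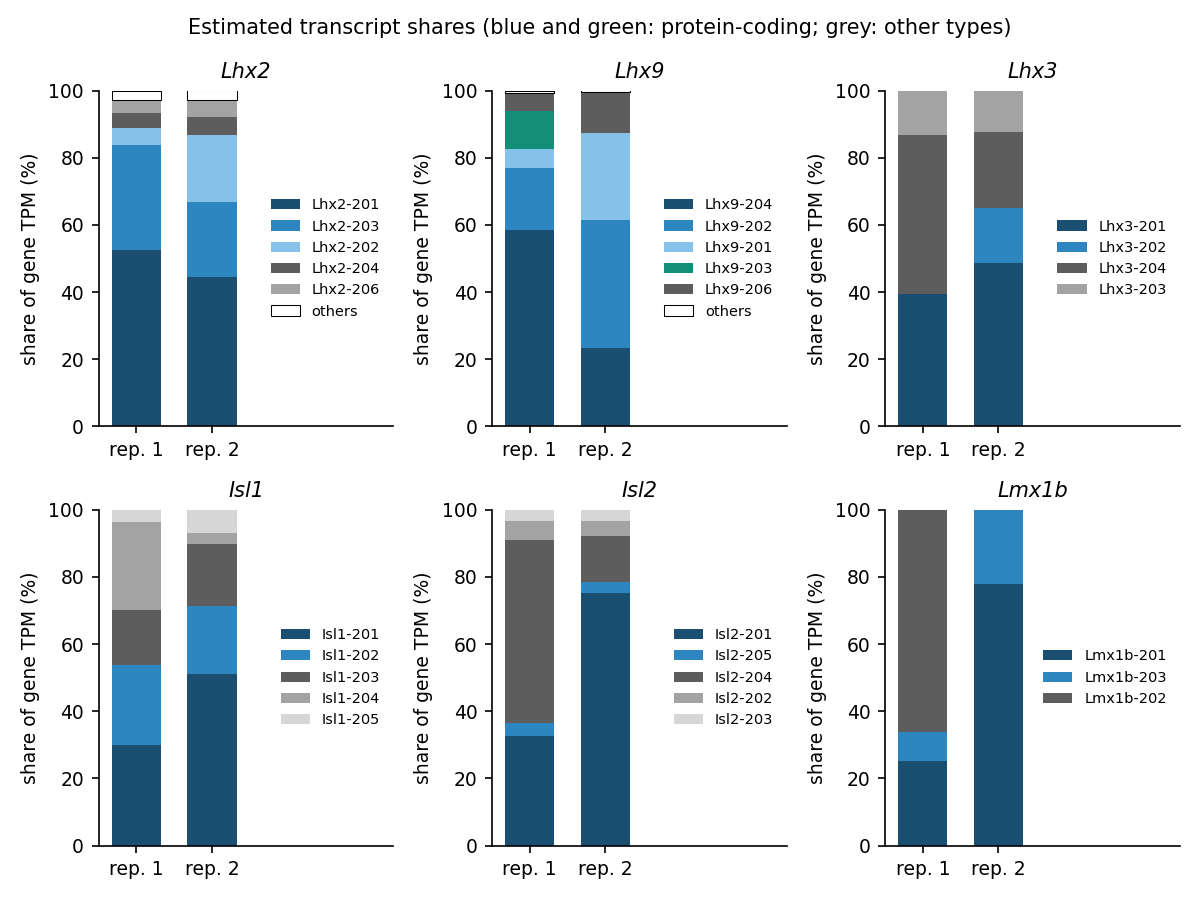
Share of each gene's TPM by transcript, in percent, in replicate 1 (left bar) and replicate 2 (right bar), with protein-coding transcripts in blue and green and other types in grey. Lmx1b-202 fills 66.1% of the Lmx1b bar in replicate 1 and none of it in replicate 2.

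Lhx1, Lhx4, Lhx5 and Lmx1a had similar transcript mixes in both libraries. Lhx1-201 held 72.5% of the gene's TPM in replicate 1 and 72.1% in replicate 2, and Lhx4-201 held 71.96% in replicate 1 and 74.4% in replicate 2. Lmx1a-201 held 96.5% in replicate 1 and all of it in replicate 2, and Lhx5 has a single annotated transcript. For these genes the count and TPM scales gave 1 direction, as they did for every other member but Isl2.

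An alternative that changes the homeodomain itself lay at the end of Lhx9. Its transcripts end in either of 2 last exons. Lhx9-202 and Lhx9-204 encode a complete homeobox, whereas Lhx9-201, Lhx9-203 and Lhx9-205 leave it after 138 of its 180 bases, just before the codons for residues 48 to 51 of the recognition helix, and go on for 54 other coding bases. The bases around the change are given below in mm10, on the minus strand, with the last shared coding bases in lower case and each form's own last exon in capitals. The first lies within chr1:138831559-138832725 and the second within chr1:138828657-138832725, each split by 1 intron.
Lhx9-202: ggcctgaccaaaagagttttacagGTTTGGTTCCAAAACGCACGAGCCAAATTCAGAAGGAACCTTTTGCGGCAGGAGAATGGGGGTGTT
Lhx9-201: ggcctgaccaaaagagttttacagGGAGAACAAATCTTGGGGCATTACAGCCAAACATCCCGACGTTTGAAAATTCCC
Both forms were read. Summed over both counts, 289 junction reads led to the last exon without the homeobox end and 802 to the one with it, a share of 26.5% for the truncated form (95% exact binomial interval 23.9% to 29.2%). The share was 20.4% in the first count (95% interval 17.7% to 23.3%) and 45.1% in the second count (95% interval 39.1% to 51.3%). These intervals do not overlap. They and the junction intervals below reflect counting error alone, and reads varied more widely between introns of 1 gene. In Lmx1a, introns present in both of its transcripts had 392 and 62 reads, or 55 and 81, as first and second count. Intervals that do not overlap thus do not show a difference beyond such spread. In the transcript tables the truncated Lhx9 forms made up 18.02% of the TPM of these 5 Lhx9 transcripts in replicate 1 and 29.6% in replicate 2. Among the complete forms, Lhx9-204 led in replicate 1 with 58.5% of the gene's TPM against 23.3% in replicate 2, and Lhx9-202 led in replicate 2 with 38.1%, against 18.5% in replicate 1.

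Isl1 and Lmx1b each had a splice site choice inside the coding sequence that keeps the reading frame. In Isl1, the next splice acceptor leaves out 69 bases that follow the homeobox, giving the shorter form known as Isl1 beta, annotated as Isl1-202. In Lmx1b, a later donor adds 21 bases, annotated in Lmx1b-203. The optional bases are in capitals, with 12 bases on either side, within chr13:116301698-116303057 for Isl1 and chr2:33564782-33565093 for Lmx1b, both on the minus strand of mm10 and split by 1 intron.
Isl1: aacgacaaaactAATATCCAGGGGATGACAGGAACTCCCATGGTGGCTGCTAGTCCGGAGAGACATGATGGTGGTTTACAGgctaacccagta
Lmx1b: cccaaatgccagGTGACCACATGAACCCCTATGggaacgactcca
The Isl1 acceptor that drops the 69 bases took 135 reads, against 353 at the other, a share of 27.7% (95% interval 23.7% to 31.9%). The shares in the first and second counts were 31.6% and 25.4%, with overlapping intervals. The Lmx1b donor that adds the 21 bases took 75 reads, against 84 at the other, a share of 47.2% (95% interval 39.2% to 55.2%), an interval that includes equal use of both sites. The transcript tables gave other proportions: of the TPM of Lmx1b-201 and Lmx1b-203, the form with the 21 bases held 26.2% in replicate 1 and 22.0% in replicate 2. Of the TPM of Isl1-201 and Isl1-202, the form without the 69 bases held 44.4% in replicate 1 and 28.2% in replicate 2. A further 30 reads joined the exons on either side of an inner Isl1 exon, against 436 that entered it from the exon before, a share of 6.44% (95% interval 4.39% to 9.06%). That share was 12.1% in the first count (95% interval 7.45% to 18.3%) and 3.56% in the second (95% interval 1.79% to 6.28%), and these intervals do not overlap. Against the 586 reads that left the inner exon for the next, the share was 4.87% (95% interval 3.31% to 6.88%). On that side the first count gave 6.05% (95% interval 3.68% to 9.29%) and the second 3.64% (95% interval 1.83% to 6.42%), and these intervals overlap. A difference in skipping between the counts thus depended on the side compared.

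Lhx2 and Lhx3 differed at their first exons. Into the second Lhx2 exon, 2284 reads came from the first exon of Lhx2-201, 588 from that of Lhx2-203 and Lhx2-204, and 245 from that of Lhx2-202. A further 96 came from an unannotated donor 80 bases after that of Lhx2-201. The share of the Lhx2-203 exon against that of Lhx2-201 was 22.6% in the first count (95% interval 20.8% to 24.6%) and 16.1% in the second (95% interval 13.8% to 18.6%). The share of the Lhx2-202 exon against that of Lhx2-201 was 7.03% in the first count (95% interval 5.83% to 8.39%) and 14.3% in the second (95% interval 12.1% to 16.8%). The intervals of the first and second counts did not overlap for either exon, and the shares moved in opposite directions. The transcript estimates were higher for Lhx2-203. Of the TPM of Lhx2-201 and Lhx2-203, it held 37.3% in replicate 1 and 33.2% in replicate 2. The Lhx2-203 form starts translation later and lacks the first 123 coding bases of Lhx2-201, with its remaining 1095 bases identical.

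**Figure D4:**
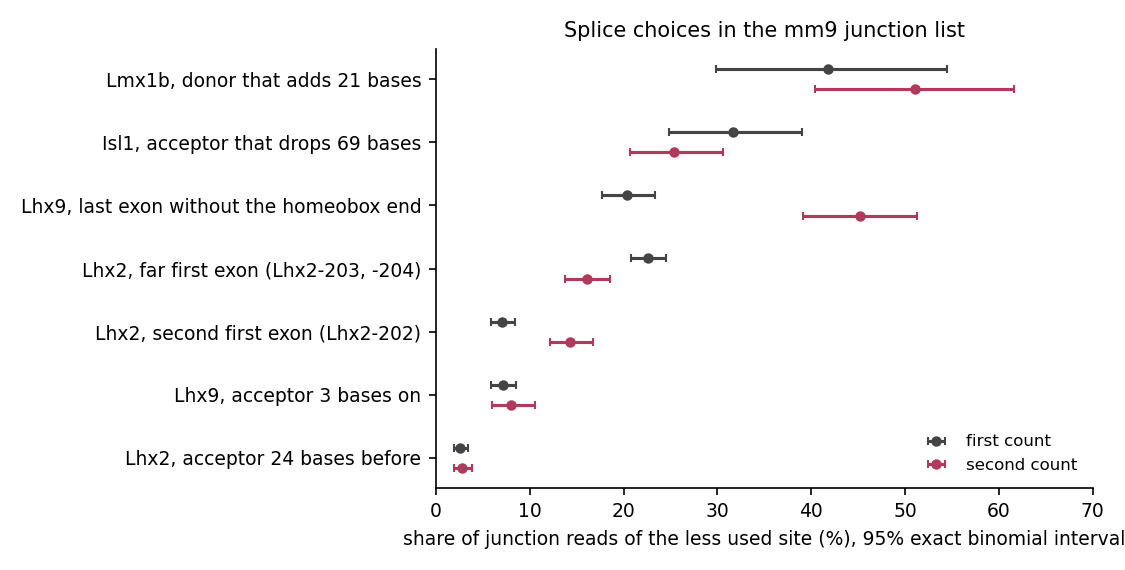
Share of junction reads, in percent, that used the less used site of selected splice choices, for the first and second count of the mm9 junction list, with 95% exact binomial intervals. The Isl1 exon skip, the unannotated Lhx2 donor and an Lhx9 choice between unannotated junctions are not drawn. The Lhx9 last exon without the homeobox end stands at 20.4% and 45.1%, with intervals that do not overlap. All intervals reflect counting error alone.

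Lhx3 has a pair of known forms with different amino ends. Their own coding starts are shown because the first exon is the only part that tells them apart. The start codon is in capitals, on the minus strand of mm10, at chr2:26206347-26206438 for Lhx3-201 and chr2:26208104-26208189 for Lhx3-202.
Lhx3-201: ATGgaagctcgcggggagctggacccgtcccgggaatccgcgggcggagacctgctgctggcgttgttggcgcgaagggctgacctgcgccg
Lhx3-202: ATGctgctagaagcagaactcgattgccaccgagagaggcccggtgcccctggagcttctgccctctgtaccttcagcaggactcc
The junction of the Lhx3-202 exon had 9 of 45 reads at the shared acceptor, a share of 20% (95% interval 9.58% to 34.6%). All 9 came from the second count, in which the Lhx3-201 junction had 28 reads, beside 8 in the first. In the transcript tables Lhx3-202 had 0 TPM in replicate 1 and 0.76 TPM in replicate 2, and Lhx3-201 had 0.59 TPM in replicate 1 and 2.25 TPM in replicate 2. The first count had 0 of 8 reads. An approximate upper limit of 3 reads, which is not an exact binomial interval, allows a share of up to 37.5%. That range includes the summed share.

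The partners of LIM homeodomain proteins were all expressed. Each of the 10 listed LIM cofactors and LIM-only factors stood at or above 1 TPM in replicate 1 and in replicate 2. Of these genes, 1 was at least 2-fold higher in replicate 1, beside 5.05% of all genes tested. Another 1 was that far higher in replicate 2, beside 6.34% of all genes tested. The log2 ratios of the list centred on a median of 0.01. Ldb1, the adaptor that joins LIM homeodomain proteins into complexes, stood at 322 TPM in replicate 1 and 347 TPM in replicate 2, above Lhx2 in each. Its paralogue Ldb2 stood at 5.34 TPM in replicate 1 and 15.2 TPM in replicate 2, and its scaled counts were 2.49-fold higher in replicate 2 (95% interval 2.31 to 2.67).

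The LIM-only proteins, which have LIM domains but no homeodomain and can compete for Ldb1, differed in direction between the libraries. Lmo2 had 62.5 TPM in replicate 1 and 27.8 TPM in replicate 2, and its scaled counts were 2.03-fold higher in replicate 1. Lmo1 had 40.6 TPM in replicate 1 and 27.5 TPM in replicate 2, and Lmo3 had 32.7 TPM in replicate 1 and 18.6 TPM in replicate 2. Lmo4 had 36.8 TPM in replicate 1 and 84.7 TPM in replicate 2. On the count scale Lmo1, Lmo3 and Lmo4 stayed within 2-fold. The LIM homeodomain genes of the ventral forebrain, Lhx6 and Lhx8, were low, with Lhx6 at 2.02 TPM in replicate 1 and 4.37 TPM in replicate 2 and Lhx8 at 4.05 TPM in replicate 1 and 10.2 TPM in replicate 2.

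Genes of the regions and cell classes in which the members act also differed between the libraries. Of 8 genes of the caudal body axis, Hox genes of groups 8 to 10, all 8 were higher in replicate 2 by 2-fold or more, and their summed level was 3.06 TPM in replicate 1 and 153 TPM in replicate 2. Hoxa9, the highest, had 1.06 TPM in replicate 1 and 33.7 TPM in replicate 2, and Hoxc9, the lowest, had 0.10 TPM in replicate 1 and 5.34 TPM in replicate 2. Of 8 somatic motor neuron genes none was at least 2-fold higher in replicate 1 and 4 were in replicate 2, among them the acetylcholine genes Chat, at 0.06 TPM in replicate 1 and 0.97 TPM in replicate 2, and Slc18a3, at 0.13 TPM in replicate 1 and 2.71 TPM in replicate 2. The list was not uniform: Neurog2, its highest gene and a progenitor factor, had 63.8 TPM in replicate 1 and 38.0 TPM in replicate 2, and the progenitor factor Olig2 had 9.85 TPM in replicate 1 and 6.43 TPM in replicate 2, both less than 2-fold apart on counts. The summed level of the list was 98.2 TPM in replicate 1 and 87.6 TPM in replicate 2, while its median log2 ratio was -1.10. The motor neuron members Lhx3, Lhx4, Isl1 and, on counts, Isl2 were higher in replicate 2. The part of tissue makeup in these ratios was not tested.

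Lists for dorsal and rostral tissue leaned the other way, although the ventral forebrain genes Lhx6 and Lhx8 did not. Of 8 roof plate and cortical hem genes, 5 were higher in replicate 1 by 2-fold or more and none in replicate 2, and the median log2 ratio was 1.37. The choroid plexus carrier Ttr was highest at 132 TPM in replicate 1 and 45.7 TPM in replicate 2, and the roof plate ligand Gdf7 lowest at 2.45 TPM in replicate 1 and 1.10 TPM in replicate 2. Of 8 eye field and telencephalon genes, 4 were that far higher in replicate 1 and none in replicate 2, with a median of 0.91. Pax6, the highest of them, had 60.1 TPM in replicate 1 and 43.1 TPM in replicate 2, and Six6, the lowest, had 0.43 and 0.24. Of 6 dI1 and Atoh1 lineage genes, 3 were that far higher in replicate 1 and none in replicate 2, with a median of 1.07. Barhl2 was highest at 26.4 TPM in replicate 1 and 12.8 TPM in replicate 2, and the proneural factor Atoh1 lowest at 3.04 TPM in replicate 1 and 1.76 TPM in replicate 2.

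Of 8 V2 interneuron genes, 2 were higher in replicate 1 by 2-fold or more and none in replicate 2, with a median of 0.70. Sox21, the highest, had 31.3 TPM in replicate 1 and 14.8 TPM in replicate 2, and Vsx1, the lowest, had 0.56 and 0.29. This lean was opposite to that of Lhx3 and Lhx4, which act in V2 neurons and were higher in replicate 2. Of 8 genes of ventral interneurons in Lhx1 and Lhx5 territory, 2 were that far higher in replicate 1 and 3 in replicate 2, with a median of -0.13. The progenitor factor Dbx1 was highest at 60.4 TPM in replicate 1 and 28.5 TPM in replicate 2, and Dbx2 lowest at 0.38 and 0.39.

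Of 6 dI3 and dI5 genes, none was that far higher in replicate 1 and 1 was in replicate 2, Lbx1, at 0.05 TPM in replicate 1 and 2.94 TPM in replicate 2. The median of this list was -0.14, with Otp highest at 8.09 TPM in replicate 1 and 9.64 TPM in replicate 2 and Pou4f2 lowest at 0.95 and 1.33. Of 7 midbrain dopaminergic genes compared, 2 were higher in replicate 1, En1 and En2, and 1 in replicate 2, Pitx3, at 0.09 TPM in replicate 1 and 3.19 TPM in replicate 2, with a median of 0.25. En2 was the highest gene of that list at 45.0 TPM in replicate 1 and 14.3 TPM in replicate 2, and the dopamine transporter gene Slc6a3 the lowest at 0.16 and 0.13. Of 5 hindbrain serotonergic genes compared, 1 was higher in replicate 1 and none in replicate 2, with a median of 0.36. The decarboxylase gene Ddc was highest at 14.3 TPM in replicate 1 and 10.2 TPM in replicate 2, and the serotonergic factor Fev lowest at 0.17 and 0.37.

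Several members are also expressed outside the central nervous system, and markers of those tissues were present. Of 7 limb bud genes, none was at least 2-fold higher in replicate 1 and 4 were in replicate 2, with summed levels of 83.6 TPM in replicate 1 and 144 TPM in replicate 2. Msx1, also in the roof plate and cortical hem list, was highest there at 51.8 TPM in replicate 1 and 43.5 TPM in replicate 2. Much of the limb bud sum in replicate 1 thus came from a gene of both lists. The hindlimb factor Tbx4 was lowest at 0.44 and 6.82. Of 6 kidney and urogenital genes, 5 were that far higher in replicate 2 and none in replicate 1, with sums of 13.2 TPM in replicate 1 and 38.6 TPM in replicate 2. Osr1 was highest at 7.22 TPM in replicate 1 and 17.7 TPM in replicate 2, and Nr5a1 lowest at 0.13 and 0.45. All 6 heart genes reached 1 TPM in both libraries, with sums of 285 TPM in replicate 1 and 271 TPM in replicate 2 and 2 genes higher in replicate 2 by 2-fold or more. The troponin gene Tnnt2 was highest at 147 TPM in replicate 1 and 83.7 TPM in replicate 2, and the cardiac factor Nkx2-5 lowest at 2.42 and 3.25. Of 6 matched sensory ganglion genes, 1 was higher in replicate 2, with sums of 43.8 TPM in replicate 1 and 65.5 TPM in replicate 2, from Prph at 16.5 and 22.6 TPM down to Avil at 0.74 and 0.50 TPM. The pituitary factor Pou1f1 had 0.03 TPM in replicate 1 and 0 in replicate 2, and the hormone subunit gene Cga had 0.14 TPM in replicate 1 and 0.27 TPM in replicate 2, while the hormone precursor gene Pomc had 8.92 TPM in replicate 1 and 4.47 TPM in replicate 2. Pitx1, the highest of the list and also a hindlimb factor, had 3.77 TPM in replicate 1 and 18.99 TPM in replicate 2. Of 3 pituitary genes compared, 2 were higher in replicate 1 by 2-fold or more and 1 in replicate 2. How much of the Isl1, Lmx1b or Lhx1 signal came from limb, heart, kidney or ganglia was not tested.

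**Figure D5:**
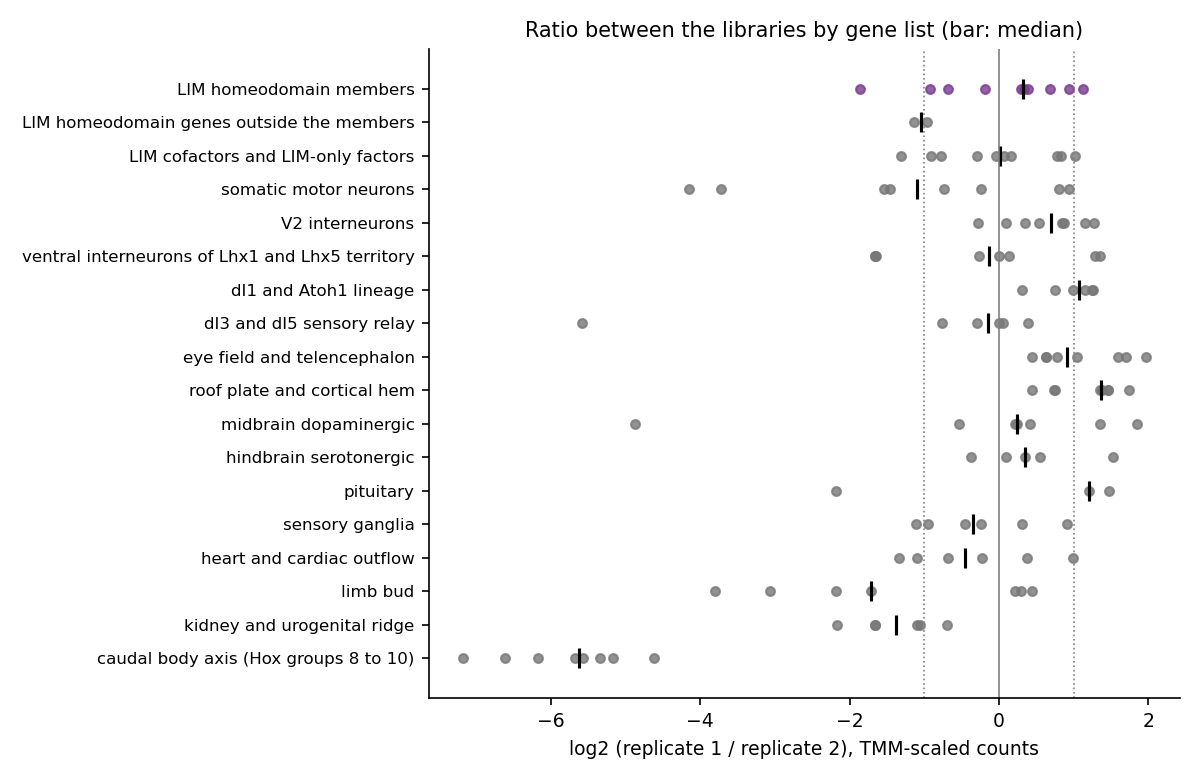
Log2 ratio of replicate 1 over replicate 2 from TMM-scaled counts, 1 point per gene with a summed count of at least 100, for the LIM homeodomain members and each companion list; bars are medians and dotted lines a 2-fold ratio. The Hox genes of groups 8 to 10 lie far to the left with a median of -5.62, the roof plate genes lie to the right with a median of 1.37, and the members spread over both sides.

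Antisense and divergent genes ran beside several members. Lhx1os, a noncoding gene that starts head to head with Lhx1, had 41.4 TPM in replicate 1 and 23.9 TPM in replicate 2, and its scaled counts were 2.02-fold higher in replicate 1 (95% interval 1.84 to 2.22), beside 1.26-fold for Lhx1. Gm27199, which overlaps the start of Lhx5 by 69 bases on the other strand, had 19.4 TPM in replicate 1 and 11.5 TPM in replicate 2, close to Lhx5 itself in each library, and a ratio of 1.98-fold (95% interval 1.74 to 2.26). C130021I20Rik, on the other strand next to Lmx1b, had 43.6 TPM in replicate 1 and 26.8 TPM in replicate 2. Among the other antisense genes within the members, Gm27197 in Lhx2 had 48 counts in replicate 1 and 16 in replicate 2, Gm27196 over Lhx3 had 3 and 34, Gm17226 over Isl2 had 2 and 7, and Gm13584 and Gm38011 had 0 in both. The libraries mark strand, but whether the deposited counts use it is not stated, so reads in the overlaps are of uncertain origin.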

How the data were processed

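Strand-specific paired-end libraries of polyadenylated RNA were analysed from the authors' deposited tables on mm10 with annotation M4, per the files' notes. Neither aligner nor quantifier is given in the sources used here. Per the file headers, the authors deposited an expected count, TPM and FPKM per gene, and expected counts, TPM and a percent of the gene per transcript. The mm9 gene and exon tables of the authors give RPKM on Ensembl 65 models, and the deposited mm9 junction list gives 2 read counts per junction.

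Expected counts were rounded and scaled by TMM in edgeR 4.0.16 (prior count 0.5). DESeq2 1.42.0 size factors were an alternative. Genes with a summed count of at least 100 were compared for a 2-fold ratio, and no p-value was computed. Symbols came from GENCODE M21 for 42462 of 43346 Ensembl genes, of 69691 rows in each table. Other rows stayed out: Ensembl genes made up 95.3% of the total in replicate 1 and 96.7% in replicate 2. Of the members' counts, all were whole numbers. Transcript shares were recomputed from TPM. Splice choices were junctions sharing 1 site with at least 20 reads each. Sequences were read from GENCODE M21 transcripts.

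Named were all members, Ldb1, Ldb2, Lmo1 to Lmo4, Lhx6, Lhx8, genes on the other strand within 1000 bases of a member, and the highest and lowest genes of a list; further list genes and the splice choices were picked after their values were seen. The members and the 17 lists (110 genes, 109 matched, 8 in more than 1 list) were chosen with earlier results of these data known. A pituitary list gene is not reported here.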

Additional observations from a re-analysis of the deposited data

How the results depend on the processing

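All 10 members stayed at or above the limit in both libraries at 0.5 TPM, with TPM rescaled over nuclear genes, and in either library alone (10 to 10 members), while 8 did at 2 TPM and 9 over protein-coding transcripts, where Lhx3 dropped out. The count of members at least 2-fold apart, 2 in the scaled counts, was 2 with DESeq2 size factors, without globin and mitochondrial genes in the scaling, or without a minimum count. It was 2 on log2(TPM + 1), where Lmx1b replaced Lhx2, 3 on log2(TPM + 0.1), 1 on log2(TPM + 1) over protein-coding transcripts (Lhx3), and 4 by the size of the mm9 RPKM ratio (Lhx2, Lhx3, Lhx4 and Lmx1b). Lhx3 passed in each. The median log2 ratio of all genes tested was -0.12 on log2(TPM + 1), beside 0.01 under TMM. Over these 6 scales 8 of 10 members kept 1 direction. Isl2 had a log2 ratio of -0.18 on counts, 0.29 on log2(TPM + 1) and -0.70 over protein-coding transcripts, and Lmx1b had 0.30, 1.42 and -0.04. The alternatives over protein-coding transcripts and the separate first and second junction counts were chosen after seeing the data. By mm9 RPKM 4 members took another place in the order of levels, and by FPKM none did. No paired analysis was possible because there is 1 group. With 2 libraries a ratio has no estimate without either of them. Counts limit Lhx3 and Lhx4 most, at 153 and 372 in replicate 1.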
